A study of Mus musculus with 12 samples.

Results

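The 10 genes described here encode the part of ER-associated degradation (ERAD) that recognises misfolded glycoproteins and the Hrd1 complex that carries them out of the endoplasmic reticulum (ER). They are Syvn1, Sel1l, Herpud1, Derl1, Derl2, Derl3, Os9, Edem1, Edem2 and Edem3, taken by symbol from the gene counts of each library. All 10 were found among the 23362 genes used, and all 10 passed the low-count filter in each comparison. The series holds polyadenylated RNA of C57BL/6 mouse cells in 12 libraries, with 4 groups of 3 that differ in genotype, Xbp1-deficient (KO) or wild type (WT), and in stage. GATA2-GMP KO and GATA2-GMP WT are granulocyte-macrophage progenitors, purified by sorting, transduced with GATA2, sorted again and cultured for 48 hours. GMP KO and GMP WT are the same kind of progenitor (GMP, the bone marrow precursor of granulocytes and of monocytes), sorted straight into Trizol. RNA of GATA2-GMP went through a SMARTer Ultra Low Input kit ahead of the TruSeq kit, which was used alone for GMP, so that stage, transduction, culture and kit changed together and cannot be told apart. The Xbp1 allele, the way the gene was deleted and the animals behind a replicate number are not in the labels. The p-values therefore measure the spread between these samples, which may be technical. XBP1 is the transcription factor that the ER sensor IRE1 switches on, by splicing its mRNA, when unfolded proteins build up, and the question asked of these genes was how far their RNA levels differed without it at each stage.

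In ERAD, enzymes of the EDEM family trim mannose from glycoproteins that fail to fold, and the lectin OS9 reads the trimmed sugar and delivers the protein to SEL1L. SEL1L is the adaptor of the membrane ubiquitin ligase Hrd1 (gene Syvn1), the derlins help to form the passage through the membrane, and HERP (gene Herpud1) is a membrane protein that helps to assemble the complex. The system is known for its part in cells that make much secreted or granule protein, and Edem1 is a textbook XBP1 target, while Herpud1 is also known to respond to other arms of the ER stress response.

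Promoter stretches that hold ER stress motifs are shown because these motifs are the known binding places of factors of this response and were found in only some of the genes searched. Windows of 300 bases, from 250 before to 50 after the start of the gene, came from RefSeq on build GRCm38.p6, and 9 of the 10 genes had one, all but Derl1. Each stretch is written 5′ to 3′ on the strand of its gene. The ER stress element (ERSE, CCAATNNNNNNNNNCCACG), searched on both strands, lay in the windows of Syvn1 and Derl3, and in 0.119% of all 32851 windows. The second element (ERSE-II, ATTGGNCCACG) lay in that of Herpud1 alone among the 9, and in 0.0365% of all windows. Edem1 held neither, and its stretch is shown only for comparison, with the common box CCACG in both orientations. Edem3 and Derl3 also had CCACG matches in both orientations. Capitals mark the element, or for Edem1 the 2 boxes.
Syvn1, chr19:6046502-6046580, plus strand: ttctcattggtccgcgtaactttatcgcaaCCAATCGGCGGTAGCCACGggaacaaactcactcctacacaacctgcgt
Derl3, chr10:75893212-75893290, plus strand: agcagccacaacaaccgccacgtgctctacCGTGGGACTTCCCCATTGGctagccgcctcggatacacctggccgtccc
Herpud1, chr8:94386347-94386417, plus strand: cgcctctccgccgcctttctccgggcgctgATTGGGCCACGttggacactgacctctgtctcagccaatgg
Edem1, chr6:108828391-108828473, plus strand: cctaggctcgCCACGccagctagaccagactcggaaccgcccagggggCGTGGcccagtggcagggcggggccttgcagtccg

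The Syvn1 element ran from 44 to 26 bases before the start of the gene. That of Derl3 was read on the opposite strand, from 156 to 138 bases before the start, and that of Herpud1 ran from 52 to 42 bases before it. Of the shorter motifs, CCACGT lay in the windows of Derl3, Edem3, Herpud1 and Os9 (8.31% of all windows), GACGTGG in that of Edem3 (2.42%), and the ATF4-type core TGATGNAAN in that of Herpud1 (3.95%). The box CCACG, which is part of both elements and of CCACGT, lay in a window of all 9 genes and in 32.8% of all windows. GACGTGG read on the other strand also contains CCACGT. These are matches of letters, and no binding was measured.

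Counts assigned to genes came to 8219366 to 33640911 per library, the lowest in GMP KO 3. Values in CPM are counts relative to library size, after scaling all 12 libraries together by trimmed mean of M values (TMM), while log2 fold changes were fitted by edgeR within the libraries of each comparison, so the ratio of mean CPM can differ slightly from the fitted change. SE is the standard error of a log2 fold change, the adjusted p is edgeR's, with Benjamini-Hochberg adjustment over all genes tested, and a gene was called at an adjusted p under 0.05. Xbp1 had 99.9, 122 and 128 CPM in GATA2-GMP KO 1 to 3, against 381, 269 and 197 CPM in GATA2-GMP WT. It had 89.8, 55.9 and 56.8 CPM in GMP KO, against 131, 133 and 153 CPM in GMP WT. At both stages the KO libraries lay below the WT libraries without overlap, although reads of the whole gene include exons that a deletion may leave. In neither did Xbp1 pass the test (edgeR adjusted p = 0.0959 in GATA2-GMP and 0.0919 in GMP), though it did without GATA2-GMP WT 3 (adjusted p = 0.0131) and without GMP KO 1 (adjusted p = 5.2e-07). With all libraries it also passed in GATA2-GMP with DESeq2 (0.00182), with no low-count filter (0.00459) and in 1 fit over all 12 libraries (0.00718), and in GMP with DESeq2 (0.000723) and limma-voom (0.00367). Gata2 had 235 to 293 CPM in GATA2-GMP KO and 223 to 370.1 CPM in GATA2-GMP WT, against 24.8 to 29.1 CPM in GMP KO and 22.5 to 39.7 CPM in GMP WT. Markers of GMP summed to 3929 to 4979 CPM in GATA2-GMP KO, 5171 to 6825 CPM in GATA2-GMP WT, 22144 to 26268 CPM in GMP KO and 25794 to 28379 CPM in GMP WT. All 10 were at 1 CPM or more in both GMP groups, and 9 in both GATA2-GMP groups. Most of the sum in GMP was Mpo. Among these markers Elane had 1618, 1503 and 1326 CPM in GMP KO, against 3228, 3178 and 3567 CPM in GMP WT. The GMP genotypes overlapped for Mpo, Cd34 and Kit. Of 10 markers of B cells and plasma cells, whose ERAD genes are known to be high, 8 were in the tables. They summed to 35.5 to 55.6 CPM in GATA2-GMP KO, 37.3 to 60.4 in GATA2-GMP WT, 32.8 to 34.9 in GMP KO and 29.8 to 33.1 in GMP WT. Most of that sum was Cd79b.

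In freshly sorted GMP, most of the 10 genes were lower in KO than in WT libraries by modest amounts, and the mannose-trimming gene Edem1 and the derlin gene Derl1 fell at the threshold. Edem1 fell to 134 ± 1.94 CPM in GMP KO, against 197 ± 13.8 CPM in GMP WT (mean ± SD, n = 3 each). Derl1 fell to 72.7 ± 4.24 CPM in GMP KO, against 89.7 ± 1.90 CPM in GMP WT. Sel1l, the adaptor of Hrd1, was the only one of the 10 above 0, at 0.05 on the log2 scale, and was at -0.04 without GMP KO 1. The 2 called genes of 10 compare with 3.17% of the 12002 genes tested that were called (0.658% higher and 2.52% lower). Over the 10 genes the median log2 fold change was -0.40, with 9 below 0, against a median of 0.01 over all genes tested, of which 48.2% were below 0. Deviations from group means of same-numbered GMP libraries correlated across genes at 0.13 to 0.26, against -0.21 to 0.02 for differently numbered ones. The test was therefore also run with the number as a replicate block, as an alternative. Differently numbered GATA2-GMP libraries reached 0.31, so values of this size do not need a shared number. With the block 5 of the 10 genes were called, all lower, beside 8.03% of all genes (3.30% higher and 4.73% lower).

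Edem1 (chromosome 6, 108778635 to 108809350, plus strand; positions of genes are on build mm9) had 136, 133 and 133 CPM in GMP KO 1 to 3, against 182, 199 and 209.8 CPM in GMP WT 1 to 3. The 3 KO values lay within a few CPM of each other and well below each WT value. The log2 fold change was -0.57 (SE 0.063, adjusted p = 0.000187), and each fit that left out 1 library called it. Its relatives were less distinct from the spread between libraries. Edem2 (chromosome 2, 155527413 to 155555211, minus strand) had 67.6, 58.6 and 57.3 CPM in GMP KO, against 81.9, 78.5 and 117 CPM in GMP WT. The groups did not overlap, and GMP WT 3 stood above the other WT libraries. The log2 fold change was -0.61 (SE 0.18, adjusted p = 0.195), and without GMP WT 3 it was -0.40 (adjusted p = 0.0233). Edem3 (chromosome 1, 153602504 to 153669458, plus strand) had 66.1, 81.4 and 72.4 CPM in GMP KO, against 82.8, 88.4 and 80.6 CPM in GMP WT. GMP KO 2 lay within the WT range. Its log2 fold change was -0.21 (SE 0.074, adjusted p = 0.204), and the replicate block gave -0.22 (adjusted p = 0.0215).

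**Figure D1:**
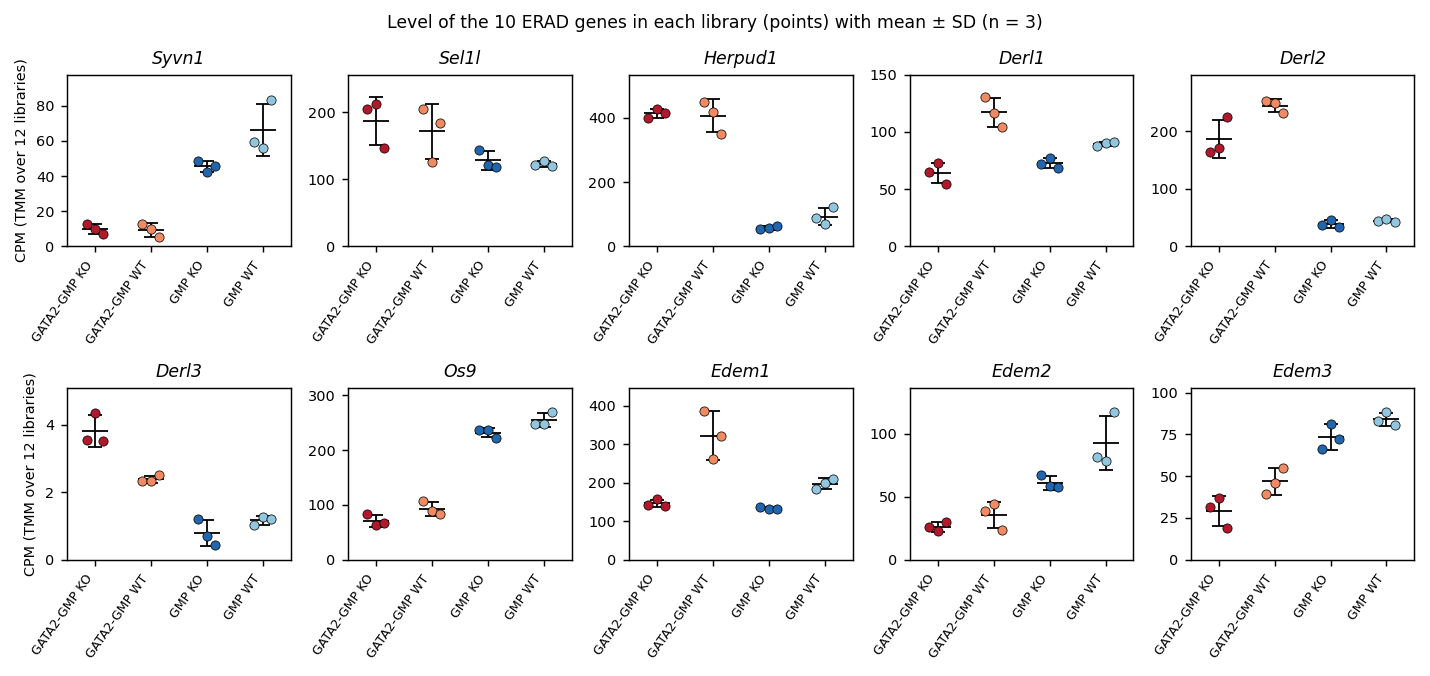
Level in CPM of each of the 10 genes in every library (points), with the mean and SD of the 3 libraries of each group; each panel has its own linear axis from 0. Edem1 sits at 139 to 157 CPM in GATA2-GMP KO against 261 to 386 CPM in GATA2-GMP WT, and at 133 to 136 CPM in GMP KO against 182 to 209.8 CPM in GMP WT, while the Sel1l groups overlap at each stage.

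Among the derlins, the rhomboid-like membrane proteins of the complex, Derl1 (chromosome 15, 57701057 to 57723973, minus strand) had 72.1, 77.2 and 68.8 CPM in GMP KO, against 87.5, 90.6 and 90.9 CPM in GMP WT. All KO libraries lay below all WT libraries. Its log2 fold change was -0.32 (SE 0.057, adjusted p = 0.00818), and without GMP KO 3, the library of lowest depth, the same size of change missed the threshold (-0.30, adjusted p = 0.0546). Derl2 (chromosome 11, 70820666 to 70833343, minus strand) had 36.4, 45.9 and 33.8 CPM in GMP KO, against 43.6, 47.6 and 42.2 CPM in GMP WT. GMP KO 2 lay among the WT libraries. The log2 fold change was -0.20 (SE 0.093, adjusted p = 0.352), -0.21 with the block (adjusted p = 0.0464), and -0.34 without GMP KO 2 (adjusted p = 0.0432). Derl3 (chromosome 10, 75356143 to 75358686, plus strand), the derlin known from secretory tissues, rested on few reads, at 1.21, 0.713 and 0.448 CPM in GMP KO, against 1.03, 1.28 and 1.20 CPM in GMP WT. The read numbers were 34, 31 and 5 reads in GMP KO and 24, 32 and 24 reads in GMP WT. The groups overlapped, and a log2 fold change of -0.49 (adjusted p = 0.508, SE 0.31) was not distinguishable at this depth.

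The membrane core of the complex gave 3 different pictures. Syvn1 (chromosome 19, 6046576 to 6053712, plus strand), the ubiquitin ligase, had 48.6, 42.4 and 45.9 CPM in GMP KO, against 59.6, 55.9 and 83.4 CPM in GMP WT. No KO library reached the lowest WT library, and GMP WT 3 stood apart from its group. The log2 fold change was -0.56 (SE 0.17, adjusted p = 0.212), and the replicate block gave -0.51 (adjusted p = 0.00774). Herpud1 (chromosome 8, 96910338 to 96919277, plus strand) had 52.6, 56.8 and 63.2 CPM in GMP KO, against 87.8, 68.1 and 121 CPM in GMP WT. The groups did not overlap, but the WT libraries were spread widely. Its log2 fold change was -0.70 (SE 0.25, adjusted p = 0.313), -0.65 with the block (adjusted p = 0.0738), and -0.89 without GMP WT 2 (adjusted p = 0.0499). Sel1l (chromosome 12, 93044483 to 93087597, minus strand) had 144, 122 and 119 CPM in GMP KO, against 121, 127 and 120.1 CPM in GMP WT. The WT libraries lay within the KO range, and the log2 fold change of 0.05 (SE 0.069, adjusted p = 0.801) was smaller than its error. The lectin gene Os9 (chromosome 10, 126531315 to 126558216, minus strand) had 237, 237 and 222 CPM in GMP KO, against 248, 248 and 269.6 CPM in GMP WT. The KO libraries lay just below the WT libraries, with a log2 fold change of -0.15 (adjusted p = 0.216, SE 0.055).

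In all, the KO and WT libraries of GMP did not overlap for 6 of the 10 genes, lower in KO each time (Syvn1, Herpud1, Derl1, Os9, Edem1 and Edem2), as for 19.4% of all genes tested in either direction. In a fit over all 12 libraries, which shares 1 estimate of the spread between the stages, Edem1 in GMP had -0.56 (adjusted p = 0.426) and Derl1 -0.30 (adjusted p = 1), so neither was called. Markers of the eosinophil lineage, of which 12 of 13 were in the tables, summed to 382 to 715 CPM in GMP KO and 143 to 336 CPM in GMP WT. Their part in these results was not tested. In such bulk RNA, fewer cells of a type and less RNA per cell cannot be told apart.

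In GATA2-GMP the log2 fold changes farthest from 0 among the 10 genes were those of Edem1 and Derl1, and no gene passed the test. Edem1 averaged 146 ± 9.63 CPM in GATA2-GMP KO and 322 ± 62.5 CPM in GATA2-GMP WT (SD, n = 3 each). Derl1 averaged 64.2 ± 9.08 CPM in GATA2-GMP KO and 117 ± 12.97 CPM in GATA2-GMP WT. Syvn1, Sel1l and Herpud1 averaged nearly the same in both genotypes. edgeR called 0 of the 10 genes, beside 0.376% of the 11699 genes tested (0.103% higher and 0.274% lower). At unadjusted p under 0.05 there were 3, DESeq2 called 2 and limma-voom called 0, beside 1743, 567 and 30 of the 11699 genes tested. The median log2 fold change over the 10 genes was -0.38, with 6 below 0, against -0.00 over all genes tested, of which 50.4% were below 0.

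Edem1 had 143, 157 and 139 CPM in GATA2-GMP KO 1 to 3, against 386, 261 and 320.5 CPM in GATA2-GMP WT 1 to 3. The lowest WT library was far above the highest KO library. The log2 fold change was -1.13 (SE 0.22, adjusted p = 0.0756). Derl1 had 64.9, 73.0 and 54.8 CPM in GATA2-GMP KO, against 130.4, 117 and 104 CPM in GATA2-GMP WT. These groups did not overlap either, and the log2 fold change was -0.86 (SE 0.21, adjusted p = 0.126). Without GATA2-GMP WT 3 both passed in edgeR, Edem1 at -1.15 (adjusted p = 0.0296) and Derl1 at -0.94 (adjusted p = 0.04). With DESeq2 they had adjusted p = 0.00029 (Edem1) and 0.0109 (Derl1), and in a fit over all 12 libraries 0.0011 and 0.00348. Edem1 also passed without the low-count filter (-1.15, adjusted p = 0.0119).

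The other enzymes and the lectin were lower on average in KO, and the genotypes overlapped for Edem2 and Os9. Edem3 had 31.6, 36.9 and 19.1 CPM in GATA2-GMP KO, against 39.3, 45.9 and 55.1 CPM in GATA2-GMP WT, without overlap, with a log2 fold change of -0.68 (adjusted p = 0.309, SE 0.28). Edem2 had 25.7, 22.5 and 30.3 CPM in GATA2-GMP KO, against 38.3, 44.1 and 23.7 CPM in GATA2-GMP WT. Here GATA2-GMP WT 3 lay within the KO range, and the log2 fold change was -0.43 (SE 0.28, adjusted p = 0.511). Os9 had 83.7, 62.6 and 67.4 CPM in GATA2-GMP KO, against 107, 88.6 and 83.1 CPM in GATA2-GMP WT. The highest KO library just passed the lowest WT library, with a log2 fold change of -0.38 (adjusted p = 0.457, SE 0.22).

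The remaining derlins went apart. Derl2 had 164, 172 and 225 CPM in GATA2-GMP KO, against 253, 249 and 232 CPM in GATA2-GMP WT, without overlap, and a log2 fold change of -0.38 (adjusted p = 0.447, SE 0.21). Derl3 had 3.56, 4.35 and 3.53 CPM in GATA2-GMP KO, against 2.32, 2.32 and 2.51 CPM in GATA2-GMP WT. Each KO library was above each WT library, on 47 to 68 reads in KO and 30 to 43 reads in WT, with a log2 fold change of 0.68 (adjusted p = 0.425, SE 0.36). The groups thus stood apart for 5 of the 10 genes, 4 lower (Derl1, Derl2, Edem1 and Edem3) and Derl3 higher, as for 22.6% of all genes tested.

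In the core of the complex the genotypes overlapped. Syvn1 had 12.6, 9.73 and 6.99 CPM in GATA2-GMP KO, against 12.8, 10.1 and 5.13 CPM in GATA2-GMP WT, a log2 fold change of 0.07 (adjusted p = 0.951, SE 0.38). Herpud1 had 401, 427 and 415 CPM in GATA2-GMP KO, against 449, 419 and 349 CPM in GATA2-GMP WT, a log2 fold change of 0.03 (adjusted p = 0.963, SE 0.21). Sel1l had 205, 212 and 146 CPM in GATA2-GMP KO, against 205, 126 and 184 CPM in GATA2-GMP WT, a log2 fold change of 0.13 (adjusted p = 0.857, SE 0.25). The sign of these values turned when 1 library was left out: Syvn1 was at -0.23 without GATA2-GMP WT 3 and -0.15 without GATA2-GMP KO 1, Herpud1 at -0.07 without GATA2-GMP WT 3 and Sel1l at -0.05 without GATA2-GMP WT 2. Markers of the eosinophil lineage summed to 56897 to 68956 CPM in GATA2-GMP KO and 136449 to 207831 CPM in GATA2-GMP WT, mostly Prg2, and those of mast cells and basophils to 8242 to 13599.7 and 4839.8 to 13810 CPM. The part of these markers in the values of the 10 genes was not tested.

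**Figure D2:**
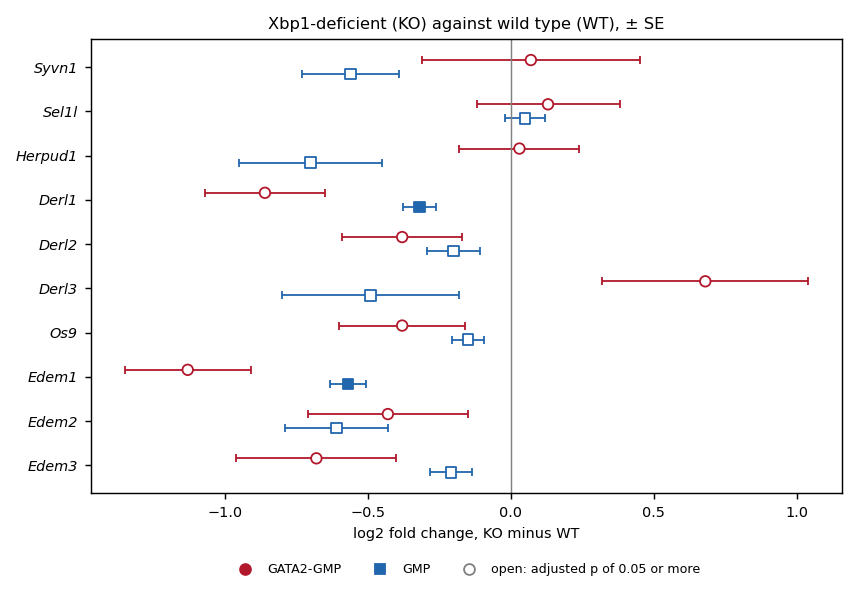
Log2 fold change of KO against WT for each of the 10 genes in GATA2-GMP (circles) and in GMP (squares), with 1 SE to either side; filled symbols passed an adjusted p of 0.05. Only Derl1 (-0.32) and Edem1 (-0.57) in GMP are filled, and the larger values of the same genes in GATA2-GMP (-0.86 and -1.13) carry wider errors.

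Whether the effect of genotype differed between the stages was tested as an interaction over all 12 libraries, as the GATA2-GMP effect minus the GMP effect. edgeR called 0 of the 10 genes, beside 0.0859% of the 12803 genes tested (0.0312% higher and 0.0547% lower). Under an unadjusted p of 0.05 there were 4, DESeq2 called 1 and limma-voom called 0, beside 1909, 794 and 4 of the 12803. Edem1 had -0.58 (SE 0.21, adjusted p = 0.218) and Derl1 -0.56 (SE 0.20, adjusted p = 0.197), so the larger differences of these genes in GATA2-GMP were not shown to exceed those in GMP. Derl1 was the gene that DESeq2 called (-0.60, adjusted p = 0.0271), and edgeR called it without GATA2-GMP WT 3 (-0.64, adjusted p = 0.0474). Herpud1 had 0.71 (SE 0.27, adjusted p = 0.234), Derl3 1.17 (SE 0.48, adjusted p = 0.27) and Syvn1 0.61 (SE 0.42, adjusted p = 0.546). The errors of Edem3 (-0.48, SE 0.30), Os9 (-0.24, SE 0.21), Derl2 (-0.19, SE 0.22), Edem2 (0.16, SE 0.32) and Sel1l (0.06, SE 0.27) were of the size of the values or close to it.

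Ratios between genes within a library do not depend on how libraries are scaled. Per exon base, reads of Edem1 relative to Sel1l were 1.02, 1.09 and 1.39 in GATA2-GMP KO, against 2.74, 3.02 and 2.55 in GATA2-GMP WT. The same ratio was 1.38, 1.59 and 1.63 in GMP KO, against 2.20, 2.28 and 2.55 in GMP WT. At both stages the KO libraries had less Edem1 per Sel1l than any WT library of that stage. Relative to Edem3 the picture differed. Edem1 per Edem3 was 5.10, 4.82 and 8.25 in GATA2-GMP KO, against 11.1, 6.42 and 6.57 in GATA2-GMP WT, with overlap. In GMP it was 2.33, 1.84 and 2.07 in KO, against 2.49, 2.54 and 2.94 in WT, without overlap. Syvn1 relative to Sel1l was 0.592, 0.612 and 0.680 in GMP KO, against 0.865, 0.772 and 1.22 in GMP WT. In GATA2-GMP it was 0.108, 0.0809 and 0.0840 in KO, against 0.110, 0.141 and 0.0491 in WT, so that the genotypes overlapped there and both lay far below GMP. Such a ratio shows unequal change of the pair, not which gene changed.

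**Figure D3:**
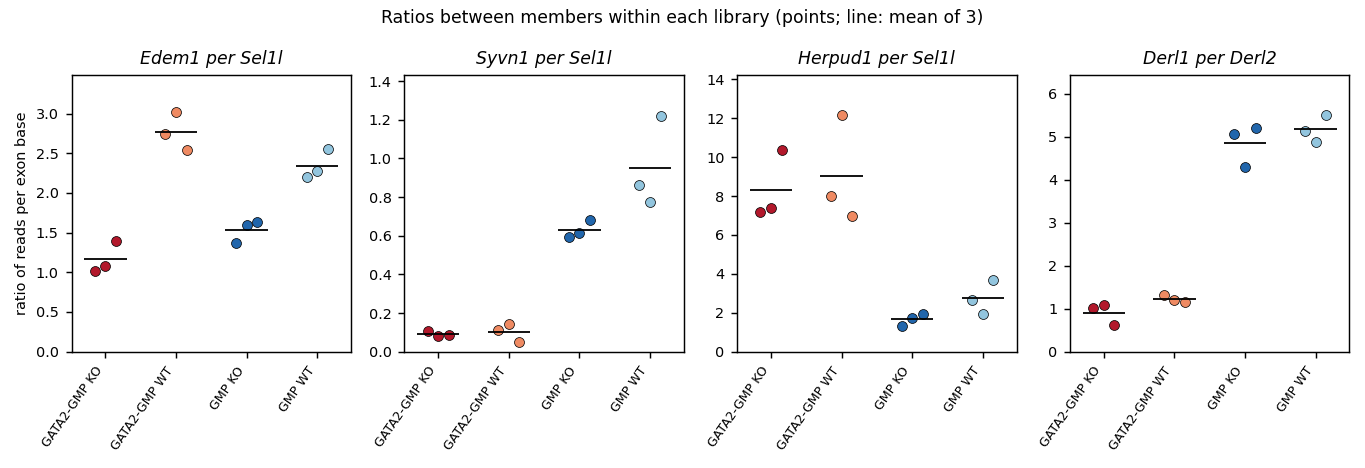
Ratios of reads per exon base between pairs of the 10 genes within each library (points), with a line at the mean of each group; the axes are linear and start at 0. Edem1 per Sel1l lies at 1.02 to 1.39 in GATA2-GMP KO against 2.55 to 3.02 in GATA2-GMP WT, and Derl1 per Derl2 at 0.623 to 1.32 in all 6 GATA2-GMP libraries against 4.30 to 5.52 in the 6 GMP libraries.

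Between the stages most of the 10 genes changed, in both directions. These comparisons share libraries with those of genotype. Among WT libraries, Herpud1 and Derl2 rose strongly in GATA2-GMP relative to GMP, and Syvn1, Os9, Edem2 and Edem3 fell. edgeR called 9 of the 10 genes, 5 higher and 4 lower, beside 70.5% of the 12251 genes tested (34.1% higher and 36.4% lower), so a call of this kind was common. Among KO libraries it called 8, 4 higher and 4 lower, beside 78.6% of the 12438 genes tested (38.6% higher and 40.0% lower). The groups did not overlap for 9 of the 10 genes in each genotype, as for 77.2% of genes in WT and 82.4% in KO. The median log2 fold change over the 10 genes was 0.44 in WT, against -0.09 over all genes tested, and -0.02 in KO, against -0.05.

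Herpud1 averaged 406 ± 51.4 CPM in GATA2-GMP WT and 92.3 ± 26.8 CPM in GMP WT, a log2 fold change of 2.14 (adjusted p = 0.000126, SE 0.24). In KO libraries it averaged 414 ± 13.03 CPM in GATA2-GMP and 57.6 ± 5.35 CPM in GMP, a log2 fold change of 2.86 (adjusted p = 3.89e-07, SE 0.14). The lowest GATA2-GMP library of either genotype, at 349 CPM, lay far above the highest GMP library, at 121 CPM. Derl2 averaged 245 ± 11.1 CPM in GATA2-GMP WT and 44.5 ± 2.80 CPM in GMP WT, a log2 fold change of 2.47 (adjusted p = 7.34e-06, SE 0.15), and 2.28 in KO (SE 0.18, adjusted p = 5.73e-06). Derl3 had log2 fold changes of 1.03 in WT (SE 0.32, adjusted p = 0.0182) and 2.20 in KO (SE 0.37, adjusted p = 0.000518). It nevertheless stayed at 2.38 ± 0.107 CPM in GATA2-GMP WT and 3.81 ± 0.467 CPM in GATA2-GMP KO. The WT call of Derl3 was missed without any 1 of the 3 GMP WT libraries (0.93 to 1.09, adjusted p 0.0771 to 0.113), without the low-count filter (0.97, adjusted p = 0.0553) and without scaling factors (0.20, adjusted p = 0.581).

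The ligase Syvn1 went the other way. It averaged 9.36 ± 3.91 CPM in GATA2-GMP WT and 66.3 ± 14.9 CPM in GMP WT, a log2 fold change of -2.82 (adjusted p = 0.000198, SE 0.35). In KO libraries it averaged 9.77 ± 2.81 CPM in GATA2-GMP and 45.6 ± 3.09 CPM in GMP, a log2 fold change of -2.21 (adjusted p = 1.54e-05, SE 0.21). Os9 averaged 92.7 ± 12.3 CPM in GATA2-GMP WT and 255 ± 12.5 CPM in GMP WT, a log2 fold change of -1.45 (adjusted p = 0.000102, SE 0.16), and -1.69 in KO (SE 0.15, adjusted p = 8.63e-06). Every GATA2-GMP library was below every GMP library for both genes. Edem2 had log2 fold changes of -1.38 in WT (SE 0.27, adjusted p = 0.00222) and -1.22 in KO (SE 0.16, adjusted p = 9.21e-05). Edem3 had -0.84 in WT (SE 0.17, adjusted p = 0.00255) and -1.32 in KO (SE 0.23, adjusted p = 0.00066). The fall of these 4 genes held its direction and its call under every scaling, filter and tool tried and with each library left out.

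**Figure D4:**
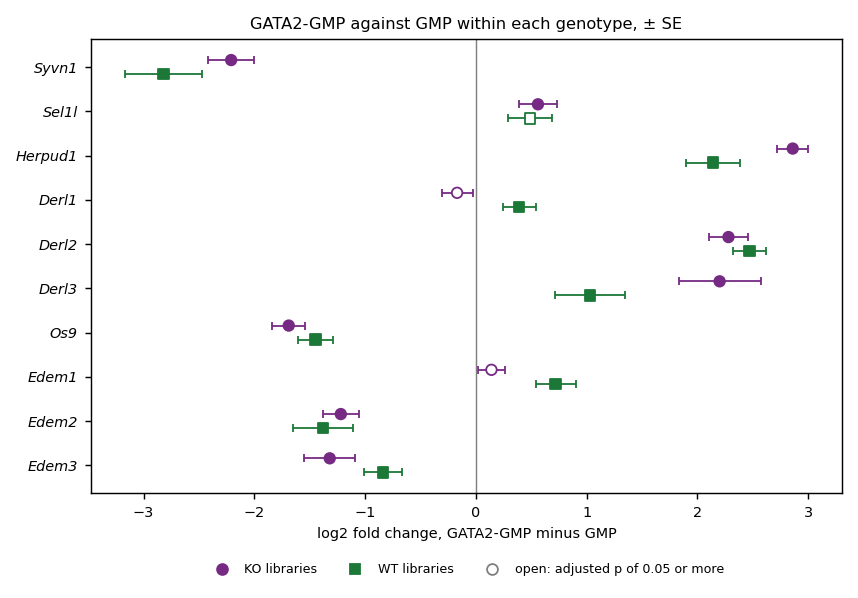
Log2 fold change of GATA2-GMP against GMP for each of the 10 genes among KO libraries (circles) and among WT libraries (squares), with 1 SE to either side; filled symbols passed an adjusted p of 0.05. Herpud1 and Derl2 lie above 2 and Syvn1 below -2 in both genotypes, while Sel1l, Derl1 and Edem1 lie between -0.17 and 0.72.

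For Sel1l and Edem1 in both genotypes, and for Derl1 in WT, the direction between stages turned with the scaling. Sel1l averaged 172 ± 40.9 CPM in GATA2-GMP WT and 123 ± 3.97 CPM in GMP WT, a log2 fold change of 0.49 (adjusted p = 0.0571, SE 0.20), and 0.56 in KO (SE 0.17, adjusted p = 0.0156). Derl1 had 0.39 in WT (SE 0.15, adjusted p = 0.0414) and -0.17 in KO (SE 0.14, adjusted p = 0.298). Edem1 had 0.72 in WT (SE 0.18, adjusted p = 0.00845) and 0.14 in KO (SE 0.12, adjusted p = 0.32). With library totals and no scaling factors the median of all genes tested shifted to -0.93 in WT. Sel1l was then at -0.35, Derl1 at -0.45 and Edem1 at -0.13, all 3 still above that median. Of these, Derl1 was called, now as lower (adjusted p = 0.0168). The same setting shifted the median of all genes to -0.73 in KO, with Sel1l at -0.11. It called Edem1 (-0.54, adjusted p = 0.00671) and Derl1 (-0.84, adjusted p = 0.00197) lower in KO. Upper-quartile factors put Edem1 at -0.01 in KO. The WT call of Derl1 was missed without any 1 of the 3 GMP WT libraries (0.36 to 0.39, adjusted p 0.134 to 0.169), without GATA2-GMP WT 1 (0.37, adjusted p = 0.0597) and with upper-quartile factors (0.21, adjusted p = 0.25) or no filter (0.33, adjusted p = 0.127). That of Edem1 was missed without GMP WT 1 (0.65, adjusted p = 0.0518), and Sel1l passed in WT without GATA2-GMP WT 2 (0.72, adjusted p = 0.00532) or WT 3 (0.53, adjusted p = 0.0313). The KO call of Sel1l was missed without GMP KO 2, GMP KO 3, GATA2-GMP KO 1 or GATA2-GMP KO 2 (0.45 to 0.50, adjusted p 0.0501 to 0.076).

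Base composition moved with the stage comparison. Across genes, the log2 fold change of stage had a Spearman rho with the GC content of the longest coding transcript of -0.28 in WT and -0.32 in KO, and with its length of -0.30 and -0.27. Genes are not independent replicates, and these values describe the libraries. Syvn1, which fell, had 57.4% GC and Derl2, which rose, 42.6%, but Derl3, which rose, had 57.6% and Edem3, which fell, 43.0%. The part of GC content and of the kit in these changes was not tested. In GMP the rho of the genotype effect with GC was 0.29, and in GATA2-GMP it was -0.10.

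The share of each gene in the whole group changed with stage. Per exon length, Herpud1 made up 57.4 to 60.0% of the summed level of the 10 genes in GATA2-GMP KO and 45.8 to 51.0% in GATA2-GMP WT, against 11.9 to 14.9% in GMP KO and 13.1 to 19.5% in GMP WT. Os9 made up 4.96 to 6.91% in GATA2-GMP KO and 6.21 to 6.53% in GATA2-GMP WT, against 30.2 to 31.0% in GMP KO and 25.0 to 27.5% in GMP WT. Edem1 held 8.02 to 8.62% in GATA2-GMP KO and 12.6 to 16.8% in GATA2-GMP WT, and 12.02 to 12.5% in GMP KO and 13.4 to 15.3% in GMP WT. The KO range of Edem1 thus lay below the WT range at each stage. The summed level of the 10 genes, without division by length, was 1108 to 1177 CPM in GATA2-GMP KO, against 1360 to 1623 CPM in GATA2-GMP WT. In GMP it was 815 to 862 CPM in KO, against 996 to 1136 CPM in WT. These sums depended on the scaling. As a share of all gene counts, without scaling factors, the sum was 0.0827 to 0.09999% in GATA2-GMP KO and 0.0981 to 0.112% in GATA2-GMP WT. In GMP that share was 0.110 to 0.111% in KO and 0.127 to 0.145% in WT. On that scale the genotypes overlapped in GATA2-GMP but not in GMP, and GATA2-GMP lay below GMP in each genotype.

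**Figure D5:**
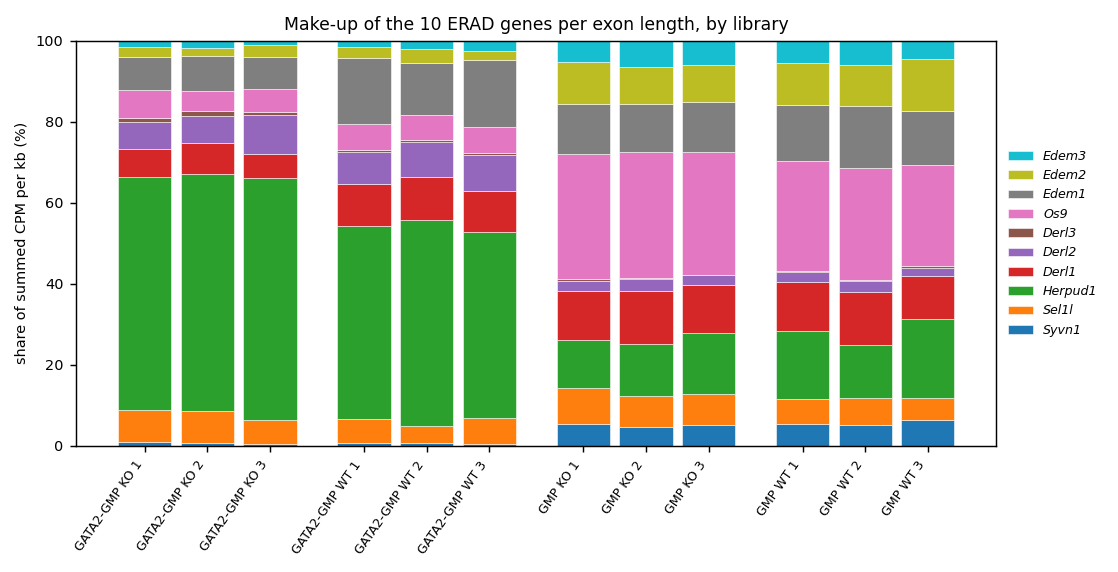
Share of each of the 10 genes in their summed CPM per kilobase of exon, in percent, with 1 bar per library. Herpud1 fills 45.8 to 60.0% of each GATA2-GMP bar and 11.9 to 19.5% of each GMP bar, and Os9 fills 4.96 to 6.91% and 25.0 to 31.0%.

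Levels were ranked between genes per kilobase of merged exons. In GATA2-GMP Herpud1 stood first, at 177 ± 5.59 CPM per kb in KO and 174 ± 22.0 CPM per kb in WT, followed by Edem1 at 25.0 ± 1.64 in KO and 55.03 ± 10.7 in WT. In KO the next places, Derl2 (23.2 ± 4.14), Sel1l (21.9 ± 4.20), Derl1 (20.4 ± 2.89) and Os9 (17.6 ± 2.73), each overlapped the neighbour before it in mean ± 1 SD, beginning with Derl2 and Edem1. Syvn1, at 2.01 ± 0.578 CPM per kb, was last in GATA2-GMP KO, and Derl3, at 1.78 ± 0.0798, was last in GATA2-GMP WT, next to Syvn1 at 1.93 ± 0.805. In GMP Os9 stood first at 57.3 ± 2.10 CPM per kb in KO and 63.0 ± 3.09 in WT, and Herpud1 second at 24.7 ± 2.29 and 39.6 ± 11.5. In GMP KO Herpud1, Derl1 (23.1 ± 1.35) and Edem1 (22.8 ± 0.331) lay within 1 SD of each other. Derl3 was last in both, at 0.593 ± 0.292 CPM per kb in GMP KO and 0.874 ± 0.0963 in GMP WT. Merged exons of Derl2 span 8049 bases against 3666 in its longest coding transcript, and by the latter length Derl2 ranks 2nd in both GATA2-GMP groups. Exons of Syvn1 share 83 bases (1.71% of its merged exons) with Mrpl49 and those of Derl2 share 231 bases (2.87%) with Mis12, each on the other strand, and whether the counting used strand is not given in the sources used here.

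The genes whose log2 CPM ran most like that of 3 members over the 12 libraries were found among 9772 genes with a mean of at least 5 CPM. For Syvn1 they were Samd4b (Pearson r = 0.985), Adam9 (0.984) and Fam98c (0.983). For Herpud1 they were Rab27b (0.991), F2r (0.990) and Timm23 (0.987), and for Sel1l Scrn3 (0.974), Irak4 (0.963) and Chst12 (0.940). Derl3 was below that mean and was not compared. Among the other members Syvn1 ran most like Os9 (0.962) and least like Derl2 (-0.945). Herpud1 ran most like Derl2 (0.963) and least like Os9 (-0.931), and Sel1l most like Herpud1 (0.716) and least like Edem2 (-0.808). The libraries fall into 2 stages that differ in kit, so these values mostly describe stage.

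Other genes of ERAD were read from a list of 60, of which 59 were in the tables and tested, to place the 10 genes within the pathway. In GMP 11 of the 59 fell and none rose in KO relative to WT, beside 2.52% of all genes lower and 0.658% higher. Their median log2 fold change was -0.08, against 0.01 over all genes tested. With the replicate block 18 fell, beside 4.73% of all genes tested. Of the 11, those farthest from 0 were Txndc11, Dnajc3 and Vimp. Dnajb9, a co-chaperone of BiP named here after its values were seen, had -1.14 (SE 0.28, adjusted p = 0.159) and was called with the block (-1.06, adjusted p = 0.00123). Hspa5, the gene of BiP, likewise named after its values were seen, had -0.63 in GMP (adjusted p = 0.283). With the block it was called there (-0.62, adjusted p = 5.39e-07). In GATA2-GMP it went the other way, at 0.88 (adjusted p = 0.177). Of the 59, 44 were below 0 and 15 above in GMP, and 41 and 18 in GATA2-GMP. Txndc11, a membrane thioredoxin-like protein, had 38.8, 36.8 and 35.7 CPM in GMP KO, against 71.6, 69.1 and 91.4 CPM in GMP WT, a log2 fold change of -1.07 (adjusted p = 0.000421, SE 0.11). Dnajc3, another such co-chaperone, had 113, 105 and 89.6 CPM in GMP KO, against 199.6, 195 and 222 CPM in GMP WT, a log2 fold change of -1.02 (adjusted p = 2.22e-05, SE 0.076). Vimp, the selenoprotein that ties derlins to the ATPase p97, had 34.7, 36.2 and 32.6 CPM in GMP KO, against 65.8, 64.6 and 73.4 CPM in GMP WT, a log2 fold change of -0.99 (adjusted p = 1.31e-05, SE 0.07). In each of these 3 the genotypes stood wide apart. Sec61b, a translocon subunit, had -0.94 and Dnajc10, a disulfide reductase that works with EDEM1, -0.93 (adjusted p 3.5e-05 and 0.000743). Jkamp, a membrane protein that binds ERAD factors and the proteasome, had -0.71, the oxidase Ero1lb -0.50, the ubiquitin ligase March6 -0.46, the lectin chaperone Canx -0.43, the selenoprotein Selk -0.41 and the folding sensor Uggt1 -0.31 (adjusted p 0.000743 to 0.0272). Uggt1 missed the threshold without GMP WT 1, GMP WT 3, GMP KO 2 or GMP KO 3 (adjusted p 0.0675 to 0.148), and Selk without GMP WT 1 or GMP KO 3 (0.0559 and 0.0543). As for Edem1 and Derl1, none of the 11 was called in GMP in the fit over all 12 libraries.

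In GATA2-GMP edgeR called 2 of the 59, both lower, beside 0.376% of all genes tested (0.103% higher and 0.274% lower). The median over the 59 was -0.35, against -0.00 over all genes tested. Dnajc3 had 52.6, 62.1 and 42.0 CPM in GATA2-GMP KO, against 208, 142 and 177 CPM in GATA2-GMP WT, a log2 fold change of -1.75 (adjusted p = 0.0274, SE 0.24). Jkamp had 10.7, 10.05 and 14.4 CPM in GATA2-GMP KO, against 48.9, 44.7 and 27.3 CPM in GATA2-GMP WT, a log2 fold change of -1.78 (adjusted p = 0.0489, SE 0.29). For neither did the genotypes overlap, but the calls depended on single libraries. The count of partners called was 10 without GATA2-GMP WT 3, 1 without GATA2-GMP WT 2 and 0 without any 1 of the other 4 libraries. Of all genes, 525 of 11980 were called without GATA2-GMP WT 3 and 28 of 11946 without GATA2-GMP WT 2. DESeq2 called 14 partners (3 higher and 11 lower), beside 567 of 11699 genes tested. A fit over all 12 libraries called 21 (4 higher and 17 lower), beside 1461 of 12803. The fit with no low-count filter called 10 (1 higher and 9 lower), beside 294 of 19210. The replicate block called 0, beside 3 of 11699. With library totals the single call was a higher one, Aup1, a gene named here after its values were seen, which had 1.19 (SE 0.21, adjusted p = 0.0572) in edgeR with TMM. In the test of the difference between the stages edgeR called 0 of the 59, with 16 at unadjusted p under 0.05, DESeq2 called 9 and limma-voom 0. Over the 12803 genes tested these counts were 11, 1909, 794 and 4, in that order. Between the stages 20 of the 59 rose and 17 fell in WT, and 21 rose and 23 fell in KO, beside 34.1% of all genes tested higher and 36.4% lower in WT, and 38.6% and 40.0% in KO.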

How the data were processed

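RNA levels were measured in 12 libraries of 4 groups. The values deposited by the authors were raw read counts by gene symbol, a table for each library, judging by whole numbers with different sums. Per the submitters' processing notes, HTSeq, DESeq, STAR 2.3.0, SAMtools 0.1.14 and build mm9 were used; their roles, the annotation, read filters and strand setting are not given in the sources used here. Each table held 23366 genes and 5 counter rows, which took 55.8 to 66.5% of records and were left out of library sizes. Among GMP gene names, 27 had become dates; 23 were restored and 4 that could stand for several genes were left out. No 2 libraries were alike (at least 14460 genes had unequal counts).

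The test was that of edgeR 4.0.16, run in R 4.3.3 (filterByExpr, TMM, estimateDisp, robust glmQLFit, glmQLFTest; adjusted p under 0.05). Genotype was tested within each stage, stage within each genotype, each on its 6 libraries, and the difference over all 12. SE is the log2 fold change over the root of its F statistic. The scripts were tested on simulated data. At the lowest depth 1 CPM stood for about 8.22 reads before scaling; only counting error is covered by read numbers. Alternatives were other scalings, no filter, DESeq2 1.42.0, limma-voom (limma 3.58.1), 1 fit over all libraries, each library left out, and a replicate block. Those for the partner genes were chosen after seeing the data.

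To see whether replicate numbers pair libraries, deviations from group means were correlated across genes. In GMP, same-numbered libraries gave 0.26, 0.19 and 0.13, and differently numbered ones -0.21 to 0.02. Differently numbered GATA2-GMP libraries gave -0.15 to 0.31, so the numbers were not shown to pair libraries. No pairing was assumed in the main tests.

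Exon lengths, positions and GC content came from GENCODE M1 on mm9, and promoter windows from RefSeq on GRCm38.p6. Genes named are the 10 members, Xbp1 and Gata2, the partners called in either genotype comparison (at most 12), and the 3 genes most like Syvn1, Sel1l and Herpud1 (log2 of CPM plus 0.5). Members and lists were chosen with earlier results of these data known; no test over a list was made. Of the partners 1, Fam8a1, was not found under that name.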

Additional observations from a re-analysis of the deposited data

How the results depend on the processing

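The calls of single genes rest on few libraries and on the spread the fit assumes. For the genes named, 1080 of the values recomputed under alternatives kept direction and side of the threshold, 47 passed newly, 56 missed it newly and 25 reversed. Genes called in GMP KO against GMP WT numbered 381 (79 higher, 302 lower), 17 in 1 fit over all 12 libraries, 964 with the replicate block and 209 to 398 with 1 library left out (209 without GMP KO 3, 237 without GMP WT 3); library totals gave 144 higher and 254 lower. In GATA2-GMP KO against GATA2-GMP WT they numbered 44 (12 higher, 32 lower), 294 with no low-count filter (124 and 170), 567 with DESeq2 (261 and 306), 1461 in 1 fit, 3 with the replicate block and 17 higher and 20 lower with library totals; leaving out 1 library gave 0 to 525 (525 without WT 3, 28 without WT 2, 8 without WT 1, 20 without KO 2 and 0 without KO 1 or KO 3). The difference between stages gave 11, 17 with RLE factors, 40 with no filter, 794 with DESeq2, 4 with limma-voom, 0 with the replicate block and 0 to 1179 with 1 library left out (1179 without GATA2-GMP WT 3, 127 without GATA2-GMP WT 2). Stage gave 7621 to 9826 genes in WT and 9026 to 10669 in KO with 1 library left out. Library totals gave 2501 higher and 6816 lower in WT, against 4176 and 4462, and 3273 and 6681 in KO, against 4801 and 4976. Of the 10 genes, GMP gave 0 called in 1 fit, 5 with the block and 1 to 3 with 1 library left out. GATA2-GMP gave 1 with no filter, 2 with DESeq2, 2 in 1 fit and 0 to 2 with 1 left out, and the difference 1 with DESeq2 and 0 to 1. Stage gave 6 to 10 in WT and 7 to 8 in KO with 1 library left out, and 7 in WT and 9 in KO with library totals. The cause was not tested.

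With 1 library left out, values that changed sign ranged from -0.24 to 0.22 for Gata2 and down to -0.04 for Sel1l (without KO 1) in GMP. In GATA2-GMP they ranged from -0.23 to 0.36 for Syvn1 (-0.15 without KO 1), -0.05 to 0.28 for Sel1l, -0.07 to 0.11 for Herpud1 and -0.29 to 0.08 for Gata2. In the difference between stages they ranged from -0.12 for Sel1l (-0.03 without GATA2-GMP KO 2), from -0.06 to 0.35 for Edem2, from -0.44 to 0.03 for Xbp1 and from -0.37 to 0.15 for Gata2. With library totals Gata2 was at 0.06 in GATA2-GMP and 0.10 in the difference, and the stage values of Sel1l (-0.35 in WT, -0.11 in KO), Derl1 (-0.45 in WT) and Edem1 (-0.13 in WT, -0.54 in KO) reversed, as did Edem1 in KO with upper-quartile factors (-0.01). In GATA2-GMP same-numbered libraries had correlations of -0.13, -0.23 and -0.41, and between stages -0.04 to 0.04. Such values cannot show whether libraries of the same number share an animal or a batch, which the labels do not give. The replicate block changed no other call of the 10 genes in GMP than those of Syvn1, Derl2 and Edem3, and in WT stage it ended those of Derl1 (0.39, adjusted p = 0.102) and Derl3 (1.04, adjusted p = 0.0964). Depth limits Derl3, with 5 to 68 reads per library.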
